A study of Mus musculus with 6 samples.

Results

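The transcripts described here encode the enzymes that carry out the hydration, dehydrogenation and thiolytic steps of mitochondrial fatty acid beta-oxidation, together with the auxiliary enzymes that handle unsaturated fatty acids. They comprise 9 genes, chosen by name from the design of the array: Hadha, Hadhb, Echs1, Hadh (Hadhsc in the array design), Acaa2, Acat1, Eci1 (Dci), Eci2 (Peci) and Decr1. The rule of choice used gene names and no measured value, but it was set with earlier results of these data known. The 9 genes are 9 of 16512 genes tested. They were covered by 12 of the 41174 probes on the array, of which 10 were tested and 2, both assigned to Hadha, were not. Livers came from male Lox control mice and from mice with a liver-specific deletion of SIRT1 (SIRT1 LKO), on a mainly C57BL/6 background. All animals were 10 weeks old, ate chow freely and were killed at 4 pm, a schedule that the submitters chose for phenotypes mediated by PPAR-alpha. Each replicate was a pool of RNA from 2 mice, 3 pools and 6 mice to a group, and each was read on its own 1-colour Agilent array of the mouse genome. The labels name neither the Cre driver nor the exons removed, and values of single animals cannot be recovered from the pools.

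Mitochondrial beta-oxidation removes a 2-carbon unit from an acyl-CoA in each turn of a 4-step cycle. An acyl-CoA dehydrogenase introduces a double bond, an enoyl-CoA hydratase adds water, a 3-hydroxyacyl-CoA dehydrogenase oxidises the product and a thiolase releases acetyl-CoA. For long chains the last 3 steps are carried out by the trifunctional protein of the inner membrane, whose alpha subunit (Hadha) holds the hydratase and dehydrogenase and whose beta subunit (Hadhb) holds the thiolase. Shorter chains are handled by soluble matrix enzymes, and double bonds of natural fatty acids require isomerases and a reductase. In liver this pathway supplies energy and the acetyl-CoA for ketone bodies, and many of its genes are known targets of PPAR-alpha, the nuclear receptor that senses fatty acids.

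Each value is a log2 intensity from which the 75th percentile of its array was subtracted, means carry the SD of n = 3 pools, and differences are SIRT1 LKO minus control on the log2 scale. That percentile was 1005 to 1056 for every array except LKO pool 3, where it was 1289, and 52.2% to 66.4% of probes were well above background. The control arrays shared 1 slide, LKO pools 1 and 2 a second slide, and LKO pool 3 lay on another, so that slide and genotype cannot be told apart. For LKO pool 3 only 0.848% of probes had the same value (within 1%) in the deposited value table as in the scanner file, against 100% for the other 5 pools, so values of the table are given beside those of the scanner file. Sirt1 itself read 0.29, 0.37 and 0.24 in the control pools and -0.07, 0.09 and 0.16 in the LKO pools with its brighter probe, lower in 3 of 3 LKO pools without passing the threshold (limma, difference -0.24, adjusted p = 0.243). Its other probe differed by -0.02. Because the deleted exons are not known, neither probe checks the genotype. Albumin and the other hepatocyte markers were abundant in every pool, with a summed linear signal of 1375 to 1731 times the 75th percentile in controls and 1509 to 1814 times in LKO livers.

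Each enzyme was read through probes of 60 bases, and a stretch of 30 bases from each probe of Hadha, Hadhb and Decr1 shows what was measured for the genes on which the results turn. Capitals mark an AATAAA hexamer, the usual polyadenylation signal, which occurred in 1 of the 12 probes. Sequences are those of the scanner files, 5′ to 3′.
Hadha: ggaagcaggaaaaagaccaaggctagcctt
Hadha, intragenic clone with a dim signal: cccaaatctgtaagggcaaatgtaacttca
Hadha, intragenic clone below background: atcctacatagaAATAAAatctccctgact
Hadhb: ttttcgataatcacagcttctgctctttaa
Decr1: tacctcatgaatagatctatgcaagaatgt
Decr1, the dimmer probe: tcatagcagatgctttattgaatacagaat
The Hadha probe that was tested lies at chr5:29152587-29152646 on the minus strand (mm7, the build of the files) and was designed against the RefSeq transcript. The other Hadha probes lie 34423 and 27589 bases upstream of it along the gene, and were designed against RIKEN cDNA clones, the further one annotated as Hadha and the nearer one, from urinary bladder, as unclassifiable. The further probe exceeded background clearly on 1 of 3 arrays in each group, and the nearer one on none of the 6 arrays. Neither therefore gives a difference, and Hadha is represented by 1 probe. The Hadhb probe lies at chr5:29217166-29217225 on the plus strand. The Decr1 probes lie 451 bases apart at chr4:15844647-15844706 and chr4:15845098-15845157, on the minus strand. The Eci1 probe spans 1398 bases of the genome at chr17:22618395-22619792 and so crosses an exon boundary. Gene models on mm7 were not used here, so whether the other probes lie in coding sequence or in a UTR is not given.

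None of the 9 enzymes differed between SIRT1 LKO and control livers past the threshold. Hadha came nearest, 1.29-fold lower in the LKO livers, while the other 8 differed by at most 0.16 in either direction. By point estimate 4 enzymes were higher and 5 lower, with a median difference of -0.01. The median over all 16512 genes was 0.02. The test was limma over 23591 probes with Benjamini-Hochberg adjustment at a threshold of 0.05, by which 0.0636% of all probes passed (1 higher and 14 lower). At an unadjusted p under 0.05 the enzymes held 1 gene, Hadha, where 21.1% of all genes lay. In these bulk samples fewer cells of a type and less RNA per cell cannot be told apart. The p-values measure the spread between pools of 2 mice, not between single animals.

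**Figure D1:**
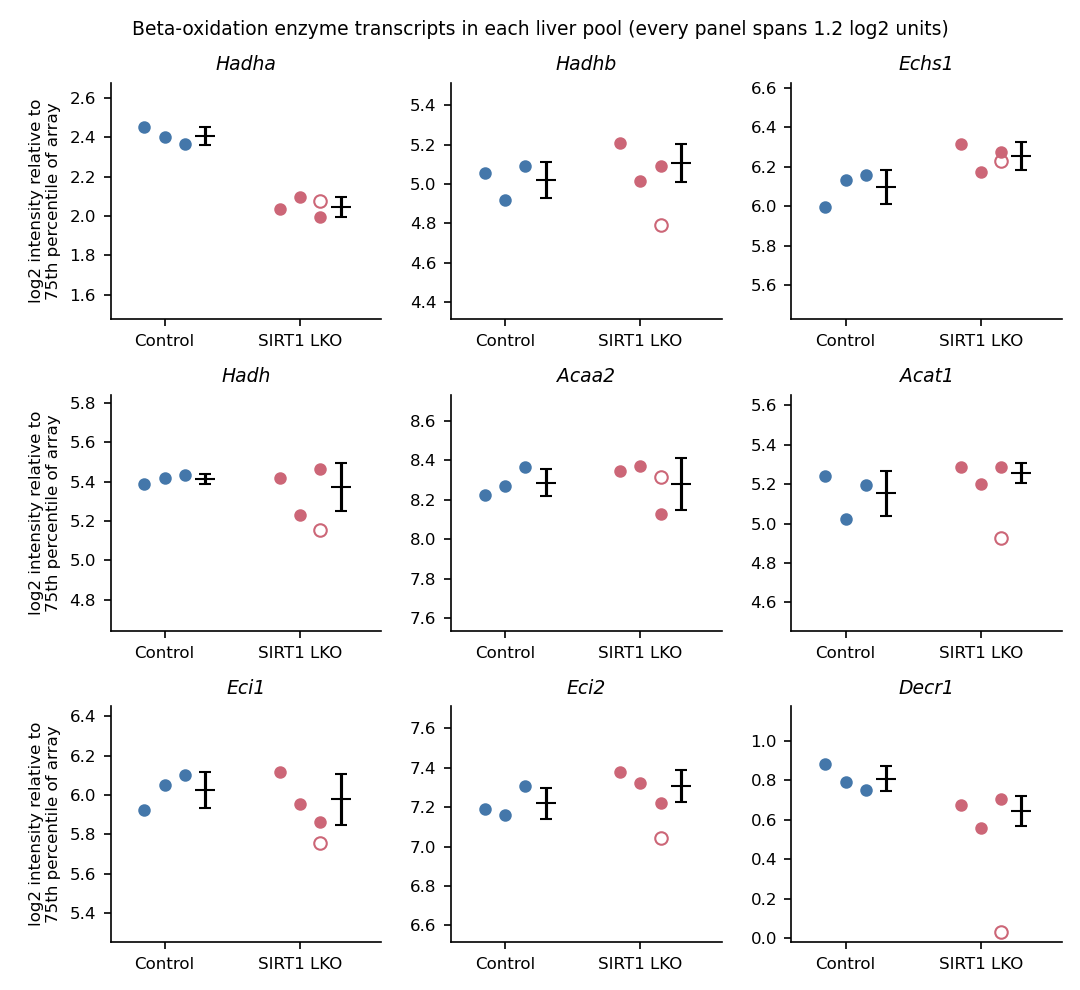
Log2 intensity minus the 75th percentile of its array (vertical axis) for the 9 enzymes in the 3 control pools (blue) and the 3 SIRT1 LKO pools (red), in the order of the replicate numbers, with mean and SD in black and LKO pool 3 as given by the deposited value table as an open circle. The 3 LKO values of Hadha, 2.00 to 2.10, lie below the 3 control values, 2.36 to 2.45, and the open circle of Decr1 lies at 0.03, far below its filled circle at 0.71.

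The subunits of the trifunctional protein differed in opposite directions by point estimate, though the sign of Hadhb was not stable. The Hadhb difference was -0.02 with the value table and -0.16 after normexp background correction. Hadha, the alpha subunit, read 2.45, 2.40 and 2.36 in the control pools and 2.04, 2.10 and 2.00 in the LKO pools. All LKO values lay below all control values, and the gap between the groups was wider than the range of 0.09 within the controls and of 0.10 within the LKO pools. The means were 2.41 ± 0.04 and 2.04 ± 0.05, a difference of -0.36 (SE 0.09, 95% interval -0.57 to -0.15, limma adjusted p = 0.110), which corresponds to a ratio of 0.672 to 0.899. Hadha ranked 1073 by p among the 23591 probes. Differences of at least this size in either direction were found in 22.1% of genes.

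Hadhb, the beta subunit, read 5.05, 4.92 and 5.09 in the control pools and 5.21, 5.02 and 5.09 in the LKO pools. The groups overlapped, and the difference was 0.08 (SE 0.10, 95% interval -0.16 to 0.33, limma adjusted p = 0.667). The log2 ratio of Hadha to Hadhb within each array, a comparison chosen after the values were seen, differed by -0.45 between LKO and control, with SDs of 0.11 and 0.13. All 3 LKO ratios lay below all 3 control ratios, for an exact permutation p of 0.100 (two-sided), the smallest that 3 pools against 3 allow. Hadha alone gave the same exact permutation p of 0.100, so the test of the ratio adds nothing to the separation of Hadha. With the value table for LKO pool 3 the ratio differed by -0.32, and the exact permutation p was 0.200.

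Hadha and Hadhb are transcribed away from each other on chromosome 5 from starts that lie 272 bases apart (RefSeq, GRCm38.p6), so the 250 bases before the Hadhb start are shown because they also hold most of the sequence before the Hadha start. The sequence is chr5:30155003-30155252 on the plus strand, reading toward Hadhb, with GC boxes (GGGCGG, searched on both strands) in capitals.
Hadha-Hadhb intergenic stretch: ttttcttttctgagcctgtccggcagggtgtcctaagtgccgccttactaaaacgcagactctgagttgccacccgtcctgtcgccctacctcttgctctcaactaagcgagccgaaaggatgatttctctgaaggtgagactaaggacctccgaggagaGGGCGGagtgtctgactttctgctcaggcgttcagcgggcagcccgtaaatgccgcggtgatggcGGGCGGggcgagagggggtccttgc
The GC content of this stretch was 58.8%. Promoter windows of 300 bases (250 before and 50 after the start) were at hand for 6 of the 9 enzymes, namely Hadha, Hadhb, Hadh, Echs1, Eci1 and Eci2, and the windows of Hadha and Hadhb share 228 bases. A GC box was found in 6 of these 6 windows and in 35.7% of 32851 windows of all genes. The 6 windows are not independent, because the box at base 161 of the stretch above lies in the shared bases and counts for both Hadha and Hadhb. The nuclear receptor core hexamer AGGTCA, searched on both strands, was found in the Echs1 window alone among the 6, against 16.3% of all windows. The direct repeat of AGGTCA with 1 base between the copies, the form bound by PPAR-alpha with RXR, and the extended hexamer TNAAGGTCA, which both contain AGGTCA, were found in 0 of the 6 and in 0.0396% and 1.28% of all windows. With motifs this rare, 0 of 6 windows is uninformative. Inexact copies and sequence outside the windows were not searched. CCAAT was found in the Eci2 and Hadh windows and in 37.4% of all windows.

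The matrix enzymes of the cycle followed no common direction. Echs1, the short-chain enoyl-CoA hydratase, read 6.00, 6.13 and 6.16 in the control pools and 6.31, 6.17 and 6.28 in the LKO pools. Every LKO value was above every control value, though LKO pool 2 exceeded the highest control by far less than the spread within either group. The difference was 0.16 (SE 0.10, 95% interval -0.07 to 0.39, limma adjusted p = 0.383). Hadh, the 3-hydroxyacyl-CoA dehydrogenase for shorter chains, read 5.39, 5.42 and 5.44 in the controls, the tightest group of any enzyme, and 5.42, 5.23 and 5.46 in the LKO pools. The LKO values lay on both sides of the controls, with a difference of -0.04 (SE 0.10, 95% interval -0.28 to 0.20, limma adjusted p = 0.835).

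The thiolases of the matrix were as close. Acaa2, the 3-ketoacyl-CoA thiolase of the matrix, read 8.23, 8.27 and 8.36 in the control pools and 8.34, 8.37 and 8.13 in the LKO pools. LKO pool 3 was the lowest and LKO pool 2 the highest of all 6 pools, the groups overlapped, and the difference was -0.01 (SE 0.11, 95% interval -0.26 to 0.25, limma adjusted p = 0.983). Acat1, the acetoacetyl-CoA thiolase that works in ketone body metabolism and isoleucine breakdown, read 5.24, 5.02 and 5.20 in the controls and 5.29, 5.20 and 5.29 in the LKO pools. Control pool 2 was the lowest, the groups overlapped, and the difference was 0.10 (SE 0.10, 95% interval -0.13 to 0.34, limma adjusted p = 0.574).

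The auxiliary enzymes for unsaturated fatty acids were measured through 4 probes. Eci1, an enoyl-CoA delta isomerase that moves a double bond into the position that the cycle can use, read 5.92, 6.05 and 6.10 in the controls and 6.12, 5.95 and 5.86 in the LKO pools. The LKO pools held both the highest and the lowest value, and the difference was -0.05 (SE 0.11, 95% interval -0.31 to 0.21, limma adjusted p = 0.835). Eci2 has the same activity; the array design names it a peroxisomal enzyme, and the protein is known in mitochondria and peroxisomes. It read 7.19, 7.16 and 7.31 in the controls and 7.38, 7.32 and 7.22 in the LKO pools. These ranges overlapped, and the difference was 0.09 (SE 0.10, 95% interval -0.14 to 0.32, limma adjusted p = 0.635).

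Decr1, the 2,4-dienoyl-CoA reductase that removes a second double bond, read 0.88, 0.79 and 0.75 in the controls and 0.67, 0.56 and 0.71 in the LKO pools with its brighter probe. Every LKO value lay below every control value, by a margin smaller than the spread within either group. The difference was -0.16 (SE 0.09, 95% interval -0.39 to 0.06, limma adjusted p = 0.358). The dimmer probe, 451 bases away, read -0.22, -0.22 and -0.58 in the controls and -0.21, -0.45 and -0.29 in the LKO pools, with overlapping groups and a difference of 0.02 (SE 0.14, limma adjusted p = 0.936). The 2 probes of Decr1 therefore differed in sign by point estimate only. The 95% interval of the dimmer probe, -0.30 to 0.35, includes 0 and overlaps that of the brighter probe.

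**Figure D2:**
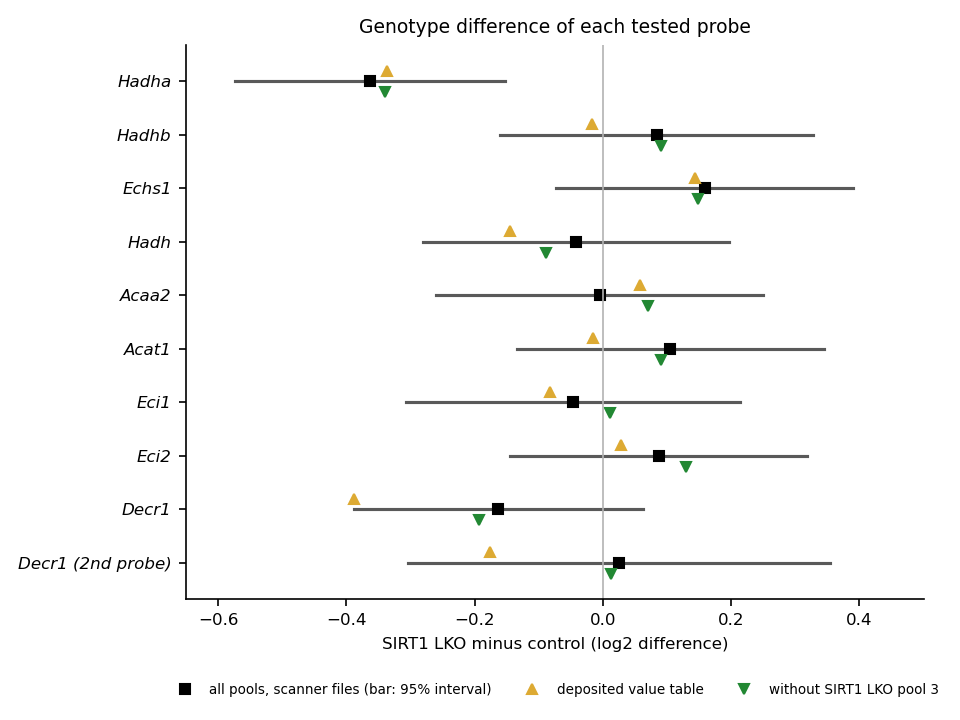
Log2 difference of SIRT1 LKO minus control (horizontal axis) for the 10 tested probes, with squares and 95% intervals from all pools in the scanner files, and triangles for the deposited value table (upward) and for the scanner files without LKO pool 3 (downward). The interval of Hadha, -0.57 to -0.15, lies to the left of 0, and the intervals of the other probes include 0.

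For the 8 enzymes other than Hadha the 95% intervals together spanned -0.39 to 0.39, which corresponds to ratios of LKO to control between 0.764 and 1.31. Their adjusted p-values ranged from 0.358 to 0.983. The median absolute difference of the 9 enzymes was 0.09, beside 0.18 for all genes tested. The SDs within groups ranged from 0.02 to 0.13 with a median of 0.08, beside a median of 0.15 for all genes, and in 9 of 9 enzymes both SDs were below that median. The groups did not overlap in 3 of the 9 enzymes, Hadha and Decr1 lower and Echs1 higher in the LKO livers. Over all genes the groups did not overlap in 28.8%, lower in 13.6% and higher in 15.2%, so that the enzymes stood near the background of the arrays.

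**Figure D3:**
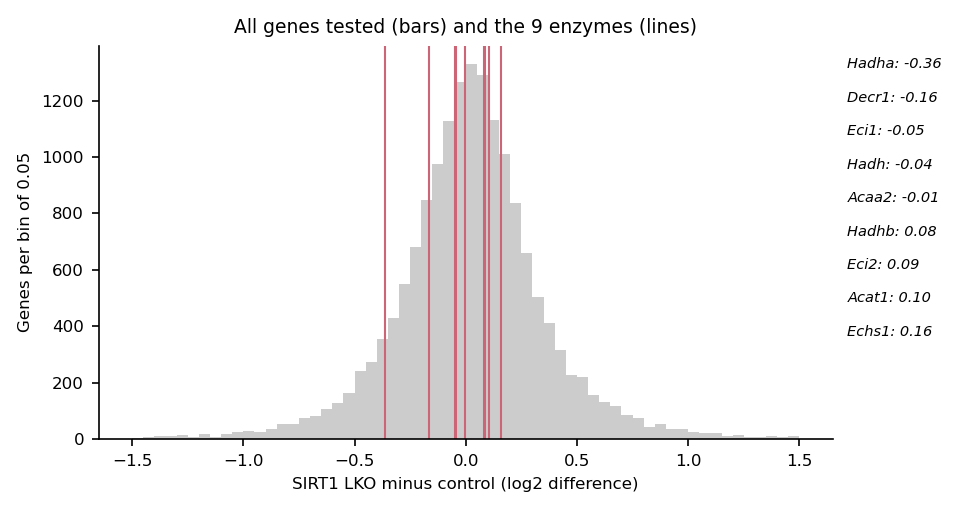
Number of genes per bin of 0.05 (vertical axis) by log2 difference of SIRT1 LKO minus control (horizontal axis), for all genes tested between -1.5 and 1.5, with a red line for each of the 9 enzymes. The lines of 8 enzymes fall in the central peak between -0.16 and 0.16, and Hadha stands to their left at -0.36.

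Among the pools, LKO pool 1 held the highest value of 5 of the 9 enzymes and had a median deviation of 0.08 from each gene's mean over the 6 arrays, against 0.02 for all genes. The other pools had median deviations between -0.05 and 0.04. The source used for LKO pool 3 changed the picture for several enzymes. In that table, 7 of the 9 enzymes read lower in this pool than in the scanner file, by a median of 0.18, where all genes read higher by a median of 0.07. Decr1 moved most, from 0.71 to 0.03, then Acat1 from 5.29 to 4.92, Hadh from 5.46 to 5.15 and Hadhb from 5.09 to 4.79. Acaa2 moved upward, from 8.13 to 8.31, and Hadha from 2.00 to 2.08.

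With the value table the pool was the lowest of all 6 for 6 of the 9 enzymes, and Decr1 differed by -0.39 (limma adjusted p = 0.218) and its dimmer probe by -0.18. Hadhb, Acat1 and Acaa2 changed sign there, to -0.02, -0.02 and 0.06. Hadha differed by -0.34 both with the value table (limma adjusted p = 0.0730) and without LKO pool 3 (limma adjusted p = 0.0740), and its groups stayed apart in the table. Over 17 alternatives the Hadha difference lay between -0.39 and -0.31 and its adjusted p between 0.0730 and 0.806. With slide as a random block it was 0.401. No enzyme passed the threshold in any of them.

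Genes of neighbouring steps were compared through lists chosen by function. Over all genes 21.1% had an unadjusted p under 0.05 (limma), the share to set beside the counts of each list. Of 17 genes of the carnitine shuttle and the acyl-CoA dehydrogenases, which admit and first oxidise the fatty acid, 6 were higher and 11 lower and 0 passed the threshold, with 1 at an unadjusted p under 0.05 (limma). The median difference was -0.03. Etfa, a subunit of the flavoprotein that takes electrons from those dehydrogenases, differed by 0.33 (adjusted p = 0.194). Hsd17b10, a matrix dehydrogenase with a related activity to Hadh, differed by -0.30 (adjusted p = 0.253), and Cpt1a, the entry step of the shuttle, by 0.23 (adjusted p = 0.401).

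Of 18 genes of peroxisomal beta-oxidation, which shortens very long and branched chains with its own hydratases and thiolases, 6 were higher and 12 lower and 0 passed, with 1 at an unadjusted p under 0.05 (limma). The median was -0.09. Crot, which exports shortened chains as carnitine esters, had the smallest p (-0.49, adjusted p = 0.121), then Amacr, a racemase of branched chains (-0.20, adjusted p = 0.317), and Ehhadh, the peroxisomal counterpart of Hadha (-0.30, adjusted p = 0.364). The ketone body list held 4 higher and 4 lower of 8 genes, 0 past the threshold and 1 at an unadjusted p under 0.05 (limma), with a median of 0.05. The ketone body transporter Slc16a1 differed by 0.36 (adjusted p = 0.255) and Aacs, a cytosolic acetoacetyl-CoA synthetase, by 0.61 (adjusted p = 0.343).

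Breakdown of branched-chain amino acids uses Echs1 and Acat1 as well. Of its 18 listed genes, Hsd17b10 again among them, 11 were higher and 7 lower, 0 passed and 2 had an unadjusted p under 0.05 (limma), with a median of 0.07. Acadsb, the dehydrogenase of the isoleucine branch, differed by -0.23 (adjusted p = 0.219), while Bckdhb, a subunit of the branched-chain keto acid dehydrogenase, differed by 0.21 (adjusted p = 0.235) and Auh, the hydratase of leucine breakdown, by 0.22 (adjusted p = 0.248). Among 14 regulators 6 were higher and 8 lower, with a median of -0.04. Of these 0 passed and 5 had an unadjusted p under 0.05 (limma), beside 21.1% of all genes. Esrra, an orphan receptor that drives oxidative genes, differed by 0.49 (adjusted p = 0.105), the corepressor Ncor1 by -0.44 (adjusted p = 0.172) and the coactivator Ppargc1b by -0.47 (adjusted p = 0.187).

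**Figure D4:**
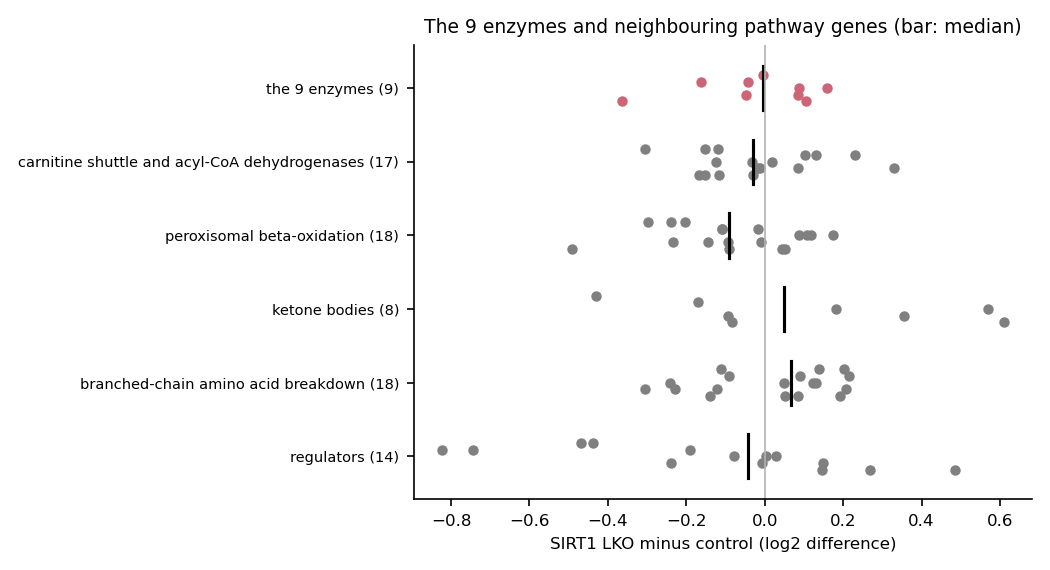
Log2 difference of SIRT1 LKO minus control (horizontal axis) for the 9 enzymes (red) and for genes of 5 neighbouring lists (grey), 1 probe per gene, with the number of genes in parentheses and the median as a black bar. The medians lie between -0.09 and 0.07, and the 9 enzymes lie between -0.36 and 0.16.

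Likeness to Hadha was described by Pearson's r over the 6 arrays, which here mainly reflects the step between the groups. Among the 82 other enzymes and listed genes Crot (0.95) and Amacr (0.86) were among those with the highest r. Over all 16483 genes Crot ranked 240 and Amacr 1085, so many genes outside the lists had a higher r. Among the same 82 genes the r of largest absolute size were negative, those of Aldh6a1 (-0.99) and Bckdhb (-0.98). Hadhb had an r of -0.53 and ranked 12101 of 16483 genes.

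Cell type markers held no gene past the threshold (limma, 0 of 39 tested, 6 at an unadjusted p under 0.05, beside 21.1% of all genes). Hepatocyte markers were higher in 6 of 9 tested (median 0.09). Of 8 Kupffer cell and macrophage markers 7 were lower (median -0.18), and the value table gave a median of 0.22. Lymphocyte markers were lower in 4 of 6 tested (median -0.17, and 0.16 with the value table), and stellate cell markers were higher in 4 and lower in 4 of 8 (median 0.02). Adipose markers were tested for 3 of 8 genes (1 higher, 2 lower), pancreas markers for 3 of 8 (3 lower) and skeletal muscle markers for 2 of 8 (1 higher, 1 lower). Plin1, Lep and Ucp1 of the adipose list and Ckm, Myh4 and Myl1 of the muscle list were not well above background on any array. The 3 adipose genes tested, named here after their values were seen, did not share a direction. Cfd read -1.20 ± 1.17 in controls and -4.64 ± 1.45 in LKO livers (limma adjusted p = 0.114), and Fabp4 read 2.11 ± 0.11 and 2.40 ± 0.08 (limma adjusted p = 0.187), each with groups that did not overlap. Cidec read 0.75 ± 0.32 and 0.74 ± 0.17, with overlapping groups (limma adjusted p = 0.993). The part of these genes in the Hadha difference was not tested.

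**Figure D5:**
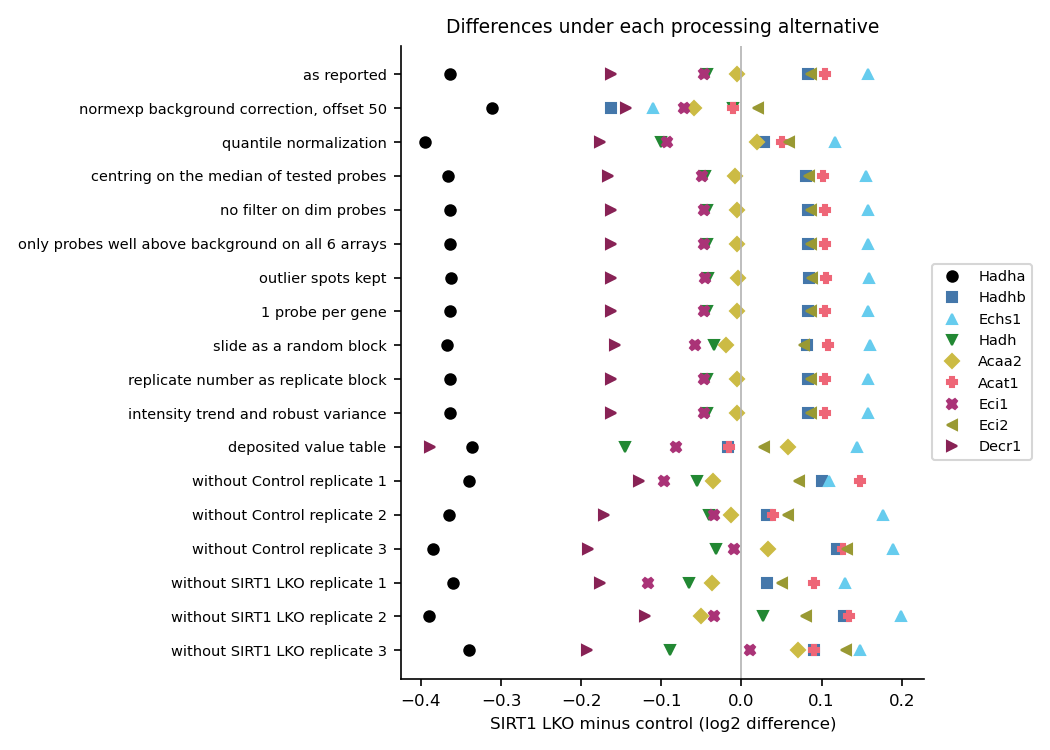
Log2 difference of SIRT1 LKO minus control (horizontal axis) for each of the 9 enzymes as reported and under 17 processing alternatives (vertical axis). Hadha stays between -0.39 and -0.31 throughout, Eci2 stays above 0 and Decr1 below 0, while the other 6 enzymes cross 0 under at least 1 alternative.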

How the data were processed

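The scanner files hold spot intensity deposited as written by Agilent Feature Extraction 9.5, with a fitted spatial surface, not the local background, subtracted and multiplicative detrending within each array, per the file headers. A value table, also deposited, gives linear intensity made with the Rosetta Resolver error model, per the labels; its medians were 74.5, 62.5 and 62.9 in the controls and 62.0, 62.6 and 62.6 in the LKO pools. Its scale is linear and uncentred in 5 columns, where 100% of the probes compared read within 1% of the scanner file. No label or header says what was done to LKO pool 3, the 1 column that differs. Spot flags (0 or 1) were used as deposited.

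Control spots were removed, outlier spots set missing, spots of a probe averaged after log2, and the 75th percentile subtracted. No member value was missing or saturated. Probes well above background on all 3 arrays of a group were tested: 23591 probes, or 16512 genes by the probe with the highest mean. Names follow RefSeq accessions (GRCm38.p6; 22951 of 41174 probes matched). The fit was limma 3.58.1 in R 4.3.3 (lmFit, eBayes, genotype only, two-sided, Benjamini-Hochberg), tested on simulated data. Members, gene lists and markers (hepatocyte, Kupffer cell and macrophage, adipose, pancreas, skeletal muscle, lymphocyte, stellate cell) were chosen with earlier results of these data known. Named genes are every member, the 3 list genes with the smallest p in each pathway list, and Sirt1; some results that this rule names are not reported here. The number of arrays limits the precision. Figures used matplotlib 3.10.9.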

Additional observations from a re-analysis of the deposited data

How the results depend on the processing

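No enzyme passed the threshold under any of the 17 alternatives, and Hadha, Eci2 and the brighter Decr1 probe kept their sign in all of them. Of 169 values of single probes, 154 kept their direction and 15 changed sign, none past the threshold. After normexp these were Hadhb (-0.16), Echs1 (-0.11), Acat1 (-0.0103) and the dimmer Decr1 probe (-0.10), and after quantile normalization Acaa2 (0.02). With the value table they were Hadhb (-0.0164), Acat1 (-0.0157), Acaa2 (0.0585) and the dimmer Decr1 probe (-0.18). When single pools were left out, Acaa2 ranged from -0.0499 to 0.0707, the dimmer Decr1 probe from -0.0953 to 0.0924, Hadh from -0.0888 to 0.0265 and Eci1 from -0.116 to 0.0113. The median over the 9 enzymes was -0.0718 after normexp and ranged from -0.0368 to 0.0707 with pools left out. The median over all probes tested moved the other way after normexp, from 0.0170 to 0.0926. The cause was not tested.

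The number of probes past the threshold, 15 of 23591, was 0 after normexp (1568 at an unadjusted p under 0.05, limma), 0 without the filter on dim probes (6859), 0 with slide as a random block (2632) and 0 with the replicate number as a block (4367). It was 49 for probes above background on all 6 arrays, 24 with 1 probe per gene, 91 with an intensity trend and robust variance, and 308 with the value table. With 1 pool left out it ranged from 0 to 698, the latter without LKO pool 3 and 0 without any other single pool (3188 to 4492 at an unadjusted p under 0.05). Deviations of pools of equal replicate number correlated at 0.01, -0.04 and -0.09, and those of unequal number between -0.08 and 0.13. No pairing by number was seen, which does not exclude one in the design. With the block Hadha differed by -0.36 (limma adjusted p = 0.207). The precision is limited by 3 pools per group, with all controls on 1 slide.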

Other observations

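The Acaa2 probe was printed as 10 spots on each array, which gives the error of reading the same labelled RNA again. The SD over its 10 spots was between 0.04 and 0.08 on the 6 arrays. Over pools the SD was 0.07 for controls and 0.13 for LKO livers. In the scanner files the 10 spots lay between 8.02 and 8.24 in LKO pool 3 and between 8.28 and 8.40 in LKO pool 1, without overlap. These 2 pools lay on different slides. The value table put Acaa2 in LKO pool 3 at 8.31, within the spots of LKO pool 1.

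The Hadha and Eci1 probes had the highest GC content of the 12 probes, 55%, against 35% to 45% in the others. Their differences were -0.36 and -0.05.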
